A study of Mus musculus with 36 samples.

Results

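Round spermatids are the haploid cells that follow meiosis in the testis, and the 6 round spermatid libraries of this mouse series were compared with its 18 libraries of liver, epididymal white adipose tissue (eWAT) and gastrocnemius, a muscle of the calf, out of 36 samples in all. The members were chosen by sample: all 6 spermatid libraries against all 18 somatic ones, joined by gene identifier over 51746 genes. A gene was called spermatid-restricted only when the lowest of the 6 spermatid libraries lay above the highest of the 18 somatic libraries, a description of ranges that carries no test. The series asks how the diet of fathers reaches their offspring, a question the present comparison does not touch.

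The spermatids came from C57BL/6 wildtype males (C57BL/6N in the study's methods), 8 weeks old, after 2 weeks on a high-fat diet (60 kcal% fat) or a low-fat diet (10 kcal% fat), 3 mice for each diet, and were enriched on a density gradient. The somatic tissues came from chow-fed C57BL/6 wildtype sons of fathers fed the high-fat diet, grouped by the submitters as high-fat-diet tolerant (HFDt) or intolerant (HFDi), 3 mice each; the age at collection was not given in the sources used here. The count columns name neither diet nor tolerance, so these were pooled within each tissue. Spermatid RNA was extracted with an RNeasy kit and made into Nextera libraries of ribosome-depleted total RNA with paired-end reads. Somatic RNA was extracted with TRIzol and made into QuantSeq libraries, single-end 3′ tags of polyadenylated RNA. Library chemistry, extraction, read type and generation therefore changed together with the tissue and cannot be told apart from it. A spermatid count grows with transcript length and a 3′ tag count does not. The series' 6 morula libraries (early embryos before implantation) were made with the spermatids' kit and read type and are given below as a comparison. The morulae came from in vitro fertilization with sperm of 8-week-old males fed the high-fat or low-fat diet for 2 weeks. Paternal diet was pooled. Ribosomal depletion is stated for the spermatids alone, and the study's methods do not say how morula RNA was selected.

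Total counts ran from 20138842 to 31056066 in spermatids, from 2036237 to 2552454 in liver, from 1338149 to 4055537 in eWAT and from 369772 to 2749920 in gastrocnemius. A count of 0 allowed a level of up to 0.149 CPM (counts scaled to the library total) in the shallowest spermatid library and up to 8.1131 CPM in the shallowest gastrocnemius library (3 counts of the total, for counting error only), so low levels could be seen in spermatids that were not detectable in soma. Levels below are CPM scaled by the trimmed mean of M-values (TMM), unless given as TPM, which also divides by exon length. The eWAT library ranked 3rd by depth (eWAT 3) stood apart: it held 12.83 CPM of protamine 1 (Prm1), against 1.152 CPM at most in the other 5, and it was lowest in adipocyte transcripts. Values that it moves are given with and without it below. Labels were checked on marker genes: 98 of 99 haploid germ cell genes measured marked the spermatids, and hepatocyte, adipocyte and muscle fibre transcripts each summed highest in their own tissue.

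A round spermatid carries 1 copy of each autosome and either an X or a Y chromosome. It is transcriptionally active and builds the parts of the sperm, the acrosome, the tail and the compact nucleus, and many of its messages are stored and translated later, when protamines replace the histones and transcription stops. Many of its genes are used in no other cell type, and several are copies of household enzyme genes, among them copies of X-linked genes. The X and Y chromosomes are silenced during meiosis, and much of the X stays repressed in spermatids. CREM-tau, an activator that binds cyclic AMP response elements (CRE), is a known regulator of haploid genes.

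Sequence upstream of 5 spermatid-restricted genes is shown because they hold, unlike 7 others examined (Prm2, Tnp2, Ldhc, 1700013G24Rik, Prr30, Ube2d2b and Tsga8), within 150 bases of the start, the letters TGANGTCA, a CRE with any base at position 4 (the consensus is TGACGTCA). Sequences are from RefSeq on GRCm38.p6, 5′ to 3′ on the strand of the gene, and end at the base before the RefSeq start. The capitals mark the match, which lies on the opposite strand in Prm1 and Tmco2, where the letters shown are its reverse complement. The deposited gene model of Prm1 starts further upstream, inside the window shown. These genes and this motif were chosen after their values and sequences had been seen.
Prm1, chr16:10796824-10796973, minus strand: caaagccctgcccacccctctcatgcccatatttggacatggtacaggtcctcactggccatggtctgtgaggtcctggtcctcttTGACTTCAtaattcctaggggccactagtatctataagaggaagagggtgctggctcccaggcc
Tnp1, chr1:73015900-73016049, minus strand: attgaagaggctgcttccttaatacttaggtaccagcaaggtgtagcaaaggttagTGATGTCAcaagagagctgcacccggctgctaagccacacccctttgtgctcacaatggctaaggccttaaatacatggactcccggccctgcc
Akap4, chrX:7067365-7067514, plus strand: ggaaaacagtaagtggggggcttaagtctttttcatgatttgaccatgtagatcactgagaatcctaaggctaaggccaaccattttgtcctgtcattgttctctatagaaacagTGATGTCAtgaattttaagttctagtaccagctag
Znrf4, chr17:56512484-56512633, minus strand: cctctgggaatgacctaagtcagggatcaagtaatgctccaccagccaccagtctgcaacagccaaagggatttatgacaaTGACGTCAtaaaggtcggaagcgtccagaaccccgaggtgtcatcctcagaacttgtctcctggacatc
Tmco2, chr4:121109218-121109367, minus strand: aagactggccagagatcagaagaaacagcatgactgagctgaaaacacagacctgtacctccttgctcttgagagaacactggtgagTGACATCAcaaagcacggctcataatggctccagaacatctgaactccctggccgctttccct

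The match began 64 bases before the start of Prm1, 94 before Tnp1, 35 before Akap4, 69 before Znrf4 and 63 before Tmco2. Akap4 has a second RefSeq promoter, and its 150 bases held no match. In promoter windows of 300 bases (250 before the start and 50 after it), searched on both strands, TGANGTCA was present in 2708 of all 27025 genes with a promoter and in 9.59% of the protein-coding genes tested. Among the haploid germ cell lists described below it was present in 24 of the 85 genes with a promoter (28.2%), and among protein-coding genes above all 18 that had 0 counts in all 18 somatic libraries in 60 of 211 (28.4%). Among all protein-coding genes above all 18 with the floor, explained below, it was present in 470 of 3742 (12.6%). It was present in 122 of 1745 protein-coding genes below all 18 (6.99%) and in 11 of 165 somatic genes absent from spermatids (6.67%). The strict form TGACGTCA, which TGANGTCA includes, was present in 3.39% of the protein-coding genes tested and in 2 of the 85 haploid genes (2.35%). TATAAA was present in 6 of the 85 haploid genes (7.06%), 46 of the 165 absent genes (27.9%) and 9.82% of the protein-coding genes tested. GGGCGG, the core of a GC box, was present in 34 of the 85 (40.0%), in 56 of the 211 genes at 0 in soma (26.5%), in 61.8% of the protein-coding genes above all 18 with the floor and in 70.7% of those below all 18, against 64.1% of the protein-coding genes tested and 38.2% of all promoters. GTTGCC was present in 16 of the 85 (18.8%) and ACAATG in 16 (18.8%), against 15.9% and 10.2% of the protein-coding genes tested. These shares describe letters in a window.

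Of 15670 genes tested in 1 fit over the 4 tissues, 6924 lay above all 18 somatic libraries (44.2%), 5504 of them protein-coding. With each somatic library raised to its own floor of 3 counts, 5277 genes remained above (33.7%), so part of the count rests on somatic libraries too shallow to show a low level. Without eWAT 3 the count was 7274, and 6914 genes were shared with the full set; without the shallowest gastrocnemius library it was 7223. Genes below all 18 numbered 2404 (15.3%). By edgeR's quasi-likelihood test at a Benjamini-Hochberg adjusted p under 0.05, spermatids were higher than liver at 8808 genes (56.2%), higher than eWAT at 8527 (54.4%) and higher than gastrocnemius at 8581 (54.8%). They were lower at 5275 (33.7%), 5808 (37.1%) and 5093 (32.5%) genes. In all 3 contrasts 7325 genes were higher (46.7%) and 3620 lower (23.1%). The median gene tested was higher in spermatids by 1.20, 0.90 and 1.06 on the log2 scale (liver, eWAT and gastrocnemius, genes with a group at 0 set to their bound), and the values of gene lists below are to be read against these medians. In bulk samples, fewer cells of a type and less RNA per cell cannot be told apart.

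Genes above all 18 took between 78.7% and 79.75% of all counts in a spermatid library. They took 4.292% to 4.558% of the counts in liver, 7.85% to 9.8% in eWAT and 3.79% to 4.779% in gastrocnemius. The rule chose these genes by the same levels, so the contrast between these shares follows in part from the choice. Of the 5277 genes above the somatic floor, 493 had 0 counts in all 18 somatic libraries, 291 of them protein-coding, and 2038 had a lowest spermatid level of at least 4 times the highest somatic level. Against the morula, 6904 of the 6924 genes were tested and 5601 (81.13%) lay above all 6 morula libraries, where 11410 of 20711 genes tested did so (55.1%). By edgeR's test spermatids were higher than morula at 5742 of them and lower at 912, against 58.9% higher and 33.7% lower of all genes tested. These genes were chosen by high levels in the same spermatid libraries, so their excess over all genes tested follows in part from the choice. The spread among the 6 spermatid libraries was small. The median SD was 7.81% of the mean over genes above all 18 and 9.27% over all genes tested. The rule uses the lowest spermatid library, so the smaller spread of its genes follows in part from that choice. At the edge of the rule, Tspan5 (14.34 CPM at lowest, against 14.33 at highest in soma) and Ganab (66.08 against 66.04) were just inside, and Tmcc1 (200.8 against 200.9) and Zfyve19 (19.46 against 19.47) just outside.

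**Figure D1:**
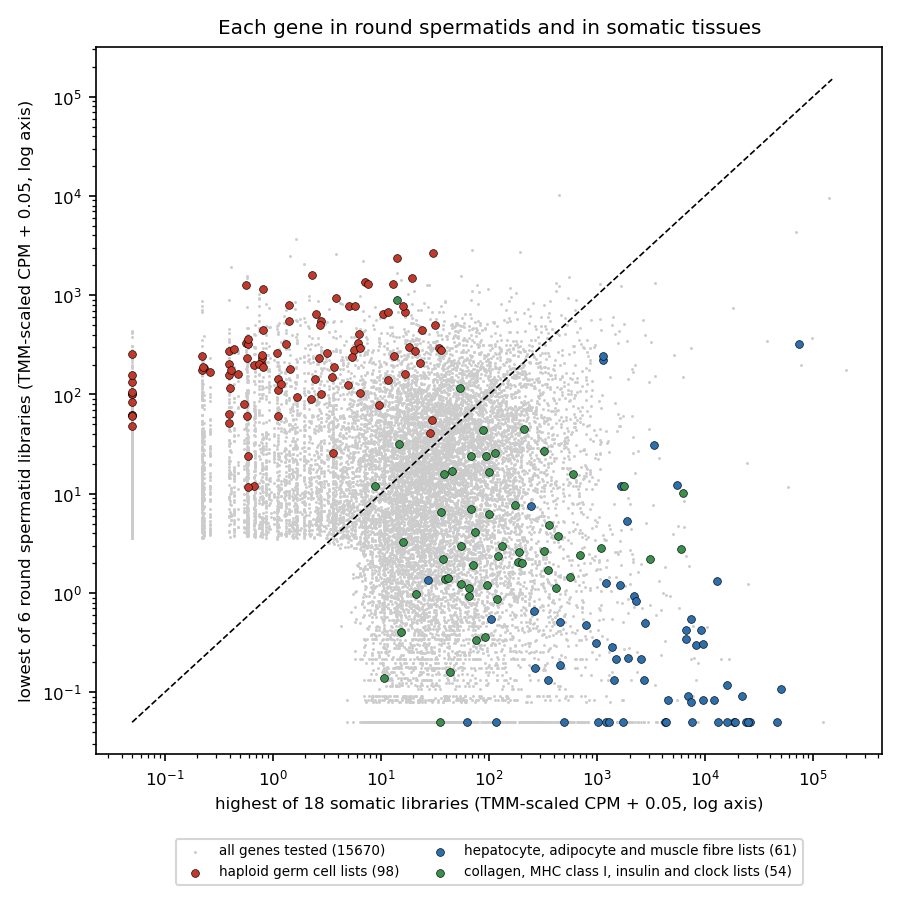
Each point is a gene, with its highest level among 18 somatic libraries on the x axis and its lowest level among 6 round spermatid libraries on the y axis, both as TMM-scaled CPM + 0.05 on log axes; the dashed line marks equal levels. The 98 tested haploid germ cell genes (red) lie above the line, and the 61 tested hepatocyte, adipocyte and muscle fibre genes (blue) lie below it; collagen, MHC class I, insulin and clock genes (green) lie on both sides.

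The haploid lists held 100 genes, of which 99 were in the tables, 98 were tested and the same 98 lay above all 18 somatic libraries, with and without the floor on soma; the members are known sperm genes. Of all genes tested 44.2% lay above all 18, 33.7% with the floor, and 46.7% were higher in all 3 contrasts. By edgeR's test on the same values, each of the 98 was higher in all 3, which follows largely from the lack of overlap. The exceptions were Hvcn1, a proton channel known from human sperm, at 0.2777 to 0.5924 CPM in spermatids and up to 9.187 CPM in eWAT 3, which was too low to be tested, and Tmem249, which has no value here. Against the 6 morula libraries, 97 of the 98 lay above, where 55.1% of all genes tested did so. Spaca6, needed for fusion with the egg, did not lie above the morula.

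The proteins that pack the sperm nucleus were among the most abundant messages per length. The spermatid chromatin list (10 of 10 above all 18) summed to 6664 to 9155 CPM in spermatids, against at most 2.105 in liver, 7.337 in gastrocnemius and 6.529 in eWAT, or 41.77 with eWAT 3. Its median log2 fold change was 10.27 over liver, 9.92 over eWAT (10.91 without eWAT 3) and 9.46 over gastrocnemius. Prm2, protamine 2, measured 2384 CPM at lowest, 2940 at the median and 3530 at highest in spermatids. It had 0 counts in liver and gastrocnemius, where it was at least 10770-fold and at least 6971-fold higher in spermatids (against 3 counts over the tissue's 6 libraries), and in eWAT it reached 14.21 CPM in eWAT 3 and 0.8511 in the others. Prm1 measured 1308, 1481 and 1957 CPM in spermatids, 0 in liver, at most 0.8152 in gastrocnemius and at most 1.152 in eWAT outside eWAT 3. The groups did not overlap for either protamine. By length they were nearly equal, at 8706 TPM for Prm1 and 8647 TPM for Prm2. Tnp2, transition protein 2, which sits on the chromatin between histones and protamines, measured 936.1, 1195 and 1449 CPM and at most 3.813 in soma, in eWAT 3 (0.177 without it). Prm1, Prm2 and Tnp2 are neighbours on chromosome 16, on the minus strand, with Tnp2 at chr16:10787936-10788655, Prm2 at chr16:10791380-10796134 and Prm1 at chr16:10796326-10796886 (GRCm38). Tnp1, on chromosome 1, measured 327.0 to 485.5 CPM, against at most 6.067 in soma, the value of eWAT 3. The histone variants H1fnt (258.6 to 347.2 CPM, 0 counts in all 18) and Hils1 (242.4 to 294.6 CPM, at most 0.1733 in soma) and the chromatin readers Brdt (283.2 to 330.5 CPM, at most 5.649 in soma) and Chd5 (551.0 to 651.5 CPM, at most 1.369 in soma) also lay above all 18; Tnp1 and these genes were named after their values were seen.

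Genes of the acrosome and of egg binding (24 of 24 above all 18) summed to 4488 to 5187 CPM in spermatids and to at most 56.68 CPM in any somatic library, that of eWAT 3 (51.08 without it). The median log2 fold change was 8.22 over liver, 9.29 over eWAT and 7.94 over gastrocnemius. Crisp2, a cysteine-rich protein of acrosome and tail, was highest, at 1356, 1428 and 1656 CPM, and rose by 9.65 ± 0.53 (SE) on the log2 scale over eWAT (edgeR adjusted p = 1.501e-13). Its highest somatic value, 7.107 CPM, was that of eWAT 3, and the other eWAT libraries reached 0.6383. Spesp1, a protein of the equatorial segment, measured 284.8, 324.4 and 336.2 CPM, and Dpy19l2, which holds the acrosome to the nucleus, 276.1, 318.8 and 326.7 CPM; neither reached 0.4 CPM in soma. The 4 Izumo genes, of which Izumo1 is the sperm ligand of the egg receptor Juno, had spermatid minima of 83.83, 60.02, 61.37 and 77.61 CPM from Izumo1 to Izumo4, and Izumo1 and Izumo3 had 0 counts in all 18 somatic libraries.

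Genes of the tail and its sheaths gave the largest sum of the lists examined, 17340 to 21570 CPM in spermatids (30 of 30 above all 18). Somatic libraries summed to at most 81.94 CPM, except eWAT 3 at 227.1. The median log2 fold change was 10.24 over liver, 9.06 over eWAT (10.72 without eWAT 3) and 9.54 over gastrocnemius. Odf2, of the outer dense fibres and also of centrioles, measured 2648, 3042 and 3327 CPM in spermatids and 8.908 to 30.34 in soma, and rose by 7.68 ± 0.23 (SE) over liver (edgeR adjusted p = 2.552e-20). Tcp11, a testis gene tied to sperm motility, measured 1583, 1805 and 1969 CPM and had 0 counts in liver and gastrocnemius. Ccdc136, a testis gene linked to the acrosome, measured 1502, 1668 and 1798 CPM and at most 19.2 in soma. Smcp, of the mitochondrial capsule of the sperm midpiece, measured 770.1, 1037 and 1218 CPM, and Odf1 measured 779.2, 888.6 and 1015 CPM. Akap4, the major protein of the fibrous sheath, is X-linked and measured 1264, 1401 and 1699 CPM, with 0 counts in liver and gastrocnemius and 0.52 CPM at most in eWAT. In eWAT 3, genes that motile cilia elsewhere also use stood out: Tekt1 was at 34.15 CPM (0.7254 at most in the other 5), Rsph1 at 31.72 (1.92), Spag6l at 18.37 (0.177) and Dnali1 at 16.64 (0.3539).

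The ion transport genes of sperm (16 of 17 in the tables above all 18) summed to 3168 to 3593 CPM in spermatids and to at most 21.49 CPM in soma (15.36 without eWAT 3), with a median log2 fold change of 9.44, 9.74 and 8.81 over liver, eWAT and gastrocnemius. Atp1a4, the sperm form of the sodium pump, measured 504.6, 538.5 and 615.3 CPM, and Adcy10, the bicarbonate-sensing adenylyl cyclase, 447.2, 469.1 and 534.1 CPM. Neither had a count in liver or gastrocnemius. The pore subunits of CatSper, the calcium channel of the tail, differed in level per length: Catsper2 and Catsper1 measured 232.4 and 227.5 TPM, Catsper4 174.8 and Catsper3 136.9. Catsper2 was also the subunit with the most somatic counts, at up to 6.314 CPM in liver, and rose by 6.38 ± 0.23 (SE) over it (edgeR adjusted p = 7.099e-19).

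Genes that control haploid expression (18 of 18 above all 18) summed to 6218 to 7175 CPM in spermatids and to at most 63.39 in soma, with a median log2 fold change of 9.43, 9.98 and 8.58. Ybx2, which coats stored messages, measured 1289, 1449 and 1599 CPM and at most 7.592 in soma. Tdrd6, of the chromatoid body, measured 1167, 1357 and 1403 CPM and at most 0.7682 in soma, and Papolb, a testis poly(A) polymerase, measured 652.5, 700.2 and 767.1 CPM and at most 2.446. Crem itself was at 207.5 to 230.1 CPM in spermatids and up to 22.99 CPM in liver, while Fhl5, the partner of CREM in testis, measured 106.7 to 131.6 CPM with 0 counts in all 18.

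**Figure D2:**
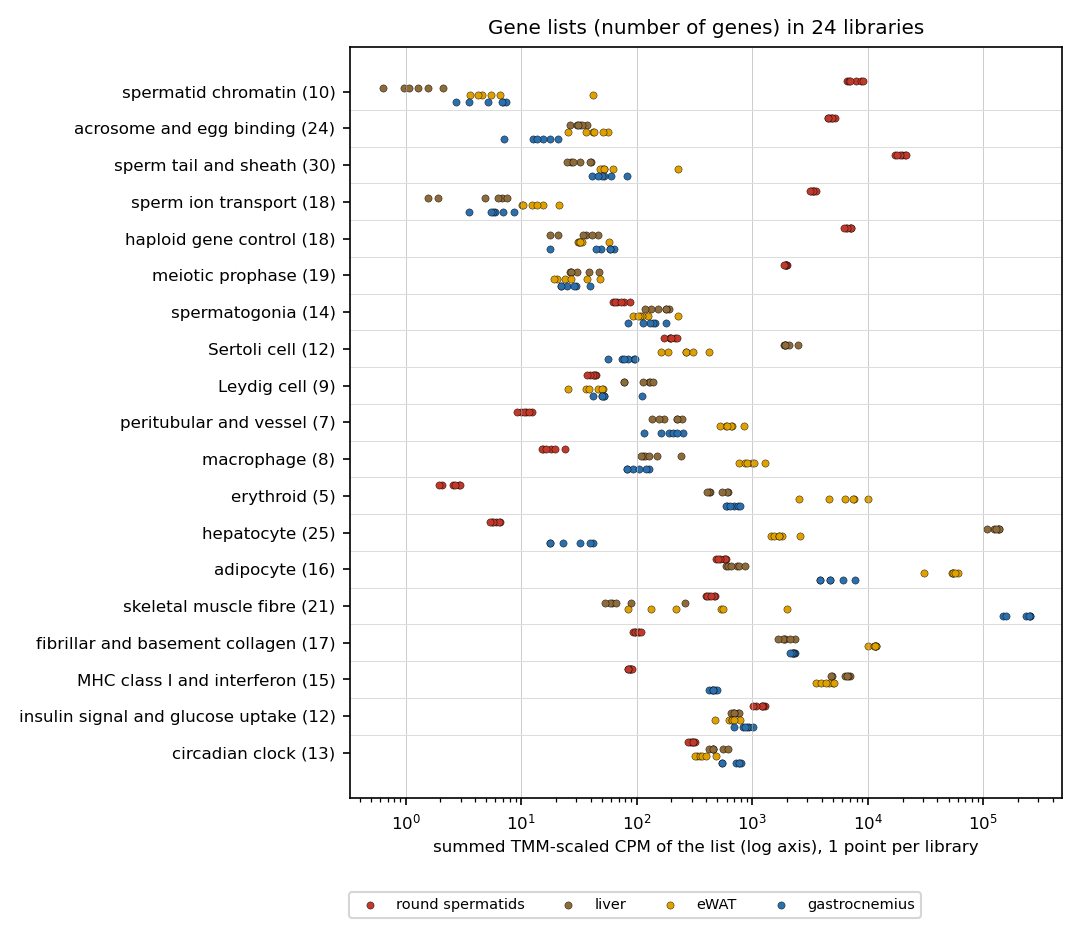
Summed TMM-scaled CPM of each gene list (y axis, number of genes in brackets) in each of 24 libraries (points, log x axis), coloured by tissue. The haploid lists lie at 3168 CPM or more in round spermatids and at 227.1 CPM or less in soma, where the highest point is eWAT 3; the hepatocyte list lies at 5.433 to 6.627 CPM in spermatids.

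By the rule on level per length, the 10 genes above all 18 that were highest were Gm23935, Rn7sk, Gm26917, Prm1, Prm2, Tnp2, Rpph1, Ldhc, Gm22513 and Smcp. Of the exact 50-base words of Gm23935, Rn7sk, Rpph1 and Gm22513, 100%, 68.09%, 68.15% and 58.26% also occur in transcripts of other genes. The levels and ranks of these genes are uncertain, and no such words were shared for the others. Rn7sk, the 7SK RNA that holds back transcription elongation, measured 3675, 4258 and 4739 CPM and at most 1.579 in soma. Rpph1, the RNA of ribonuclease P, measured 549.9, 687.7 and 719.2 CPM and at most 3.668 in soma. Both lack a poly(A) tail, and the somatic libraries were primed on poly(A), whose part in these values was not tested. In the morula libraries, whose RNA selection is not stated in the methods, Rn7sk measured 8.976 to 26.33 CPM and Rpph1 at most 0.08441. Gm23935, annotated as a microRNA gene of 57 bases, ranged from 1556 to 5801 CPM in spermatids and from 2232 to 3542 in morula, ranges that overlap (log2 fold change 0.01 ± 0.26 SE, edgeR adjusted p = 0.9703). Ldhc, the testis lactate dehydrogenase, measured 2190, 2296 and 2505 CPM, with 0 counts in liver and at most 6.76 in soma, in eWAT 3 (0.8152 without it).

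Among protein-coding genes with 0 counts in all 18, those highest per length, chosen after their values were seen, included 1700013G24Rik, Znrf4, Prr30, H1fnt, Gykl1, Tmco2, Ube2d2b, Tsga8 and Gm5142. Znrf4, a membrane ubiquitin ligase with the strict CRE shown above, measured 310.1, 358.6 and 388.5 CPM, at least 1273-fold above liver and at least 3061-fold above eWAT. Prr30 measured 423.9, 493.1 and 542.9 CPM, at least 4308-fold above eWAT. Gykl1, a glycerol kinase-like gene of 1 exon, measured 413.0 to 485.4 CPM. In the morula libraries these 9 genes reached at most 2.934 CPM, for Tmco2. A gene model that shares the symbol St6galnac2 with another gene, and ranks 3rd among them, was left out; it reached 4.203 CPM in the morula.

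By annotated type, 85.19% of 574 lincRNA genes tested lay above all 18, and 81.37% of 408 antisense genes, against 40.38% of 13632 protein-coding genes. With the floor on soma the shares were 35.71%, 32.6% and 34.51%. The strand setting of the counting was not given in the sources used here, and reads of an antisense gene and its partner cannot be told apart.

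Germ cell genes were set beside their somatic relatives in 25 pairs, many of them glycolytic or mitochondrial enzymes. The germ cell gene lay above all 18 somatic libraries in 25 of 25 pairs, with and without the floor, where 44.2% of all genes tested did so. It held over 50% of the pair's TPM in spermatids in 23 pairs and over 90% in 17. The somatic relative lay below all 18 in 12 pairs and was lower in all 3 contrasts by edgeR's test in 14. The shares of all genes tested were 15.3% and 23.1%. In 11 pairs the somatic relative is X-linked; the germ cell gene held over 90% in 9 of these and has 1 exon in 6.

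Pdha1, the X-linked subunit of pyruvate dehydrogenase, measured 0.3626 to 0.7637 CPM in spermatids, against 127.3 to 189.6 in liver, 231.6 to 388.0 in eWAT and 481.6 to 869.3 in gastrocnemius, and fell by 8.32 ± 0.23, 9.16 ± 0.24 and 10.49 ± 0.25 (SE) on the log2 scale. Its autosomal relative Pdha2, of 1 exon, measured 139.7 to 154.0 CPM in spermatids and at most 0.1733 in soma. Pdha2 held 99.79% of the pair by length (99.66% to 99.85% over the 6 libraries). Gk2 held 99.96% against glycerol kinase, Gk; Pgk2 99.57% against phosphoglycerate kinase, Pgk1; Rpl39l 99.64%, Cox7b2 99.63%, Cetn1 99.26%, Rpl10l 98.48%, Rbmxl2 97.76% and Slc25a31, the testis ADP/ATP carrier, 90.57% against Slc25a5. Utp14b held 84.60% and Cstf2t, a polyadenylation factor, 64.65%; Cstf2 itself was at 52.0 to 64.82 CPM in spermatids, within the range of eWAT (45.88 to 76.54).

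Among pairs with an autosomal relative, Gapdhs held 99.35%, Atp1a4 98.56%, Cox8c 98.31%, Tktl2 97.96%, Cyct 97.89%, Ppp3r2 97.55%, Cox6b2 95.48%, Ppp3cc 92.31% and Tbpl1 89.11%. Ldhc held 87.47%, beside Ldha at 630.3 to 739.6 CPM, a level above that of all 18 somatic libraries (462.4 at highest). Papolb held 87.24% and Hspa1l 74.84%. In 2 pairs the somatic relative was the larger by length: Aldoart1 held 45.51% against Aldoa, and Eno4 41.57% against Eno1. The levels of Gapdh, Pgk1, Rpl10, Eno1, Slc25a5, Hspa8 and Cycs are uncertain in every tissue, and with them the shares of their pairs. Between 24.71% and 53.88% of their exact 50-base words also occur in transcripts of other genes, and Gapdh, a message every tissue uses, was at 0 to 5.706 CPM in the somatic libraries, and Pgk1 at 0 to 1.255. No such words were shared for Pgk2 or Gapdhs.

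**Figure D3:**
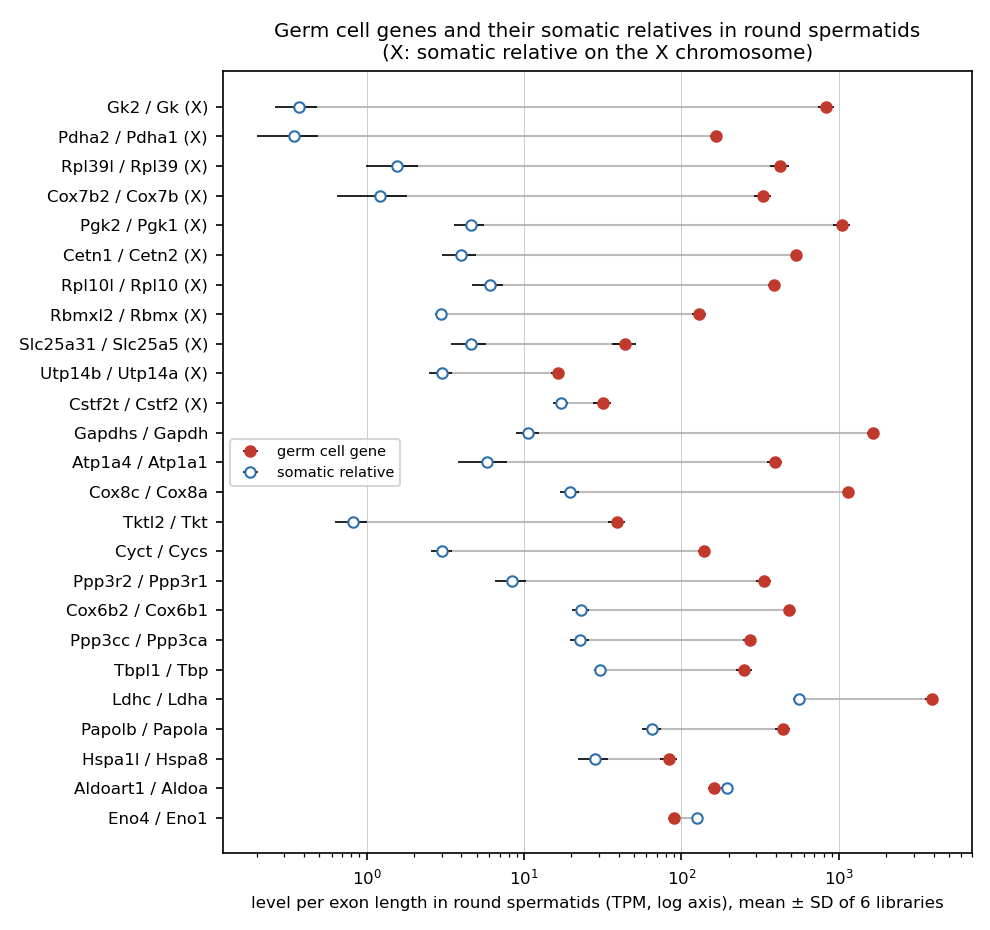
Level per exon length (TPM, log x axis) of 25 germ cell genes (filled) and their somatic relatives (open) in round spermatids, as mean ± SD of 6 libraries, with pairs whose somatic relative is X-linked at the top. The filled point lies to the right in 23 pairs and to the left in Aldoart1 and Eno4.

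X-linked genes lay lower than autosomal genes in spermatids relative to soma. Of 438 protein-coding X-linked genes tested, 131 (29.91%) lay below all 18 somatic libraries, against 15.92% of 13172 protein-coding genes elsewhere in the nuclear genome outside the Y. The median X-linked log2 fold change was -0.80 over liver, -1.61 over eWAT and -1.08 over gastrocnemius, against 0.90, 0.63 and 0.77 for the autosomes (genes with a group at 0 at their bound). In the fitted values the X lay below the autosomes by 1.64 to 2.20, and over the scalings, tests and left-out libraries tried the difference lay between -1.57 and -2.33. Against the morula the medians were -0.58 and 0.76. Not all of the X was low: 144 X-linked genes (32.88%) lay above all 18, against 40.60%, and 80 (18.26%) with the floor, against 35.07%. Of 25 X-linked genes with 1 exon, 18 lay above all 18 (72.00%), and of 413 with more exons 126 did (30.51%); with the floor the shares were 32.0% and 17.43%. Over all protein-coding genes 56.68% of 404 with 1 exon and 39.88% of the others lay above all 18, and with the floor 44.55% and 34.2%. The X-linked genes highest per length among those above the floor were Akap4, Tsga8 (155.2 to 198.9 CPM), Cypt1 (54.15 to 72.45), Hypm (33.53 to 54.31), Gm6760 and Cypt3, named after their values were seen.

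**Figure D4:**
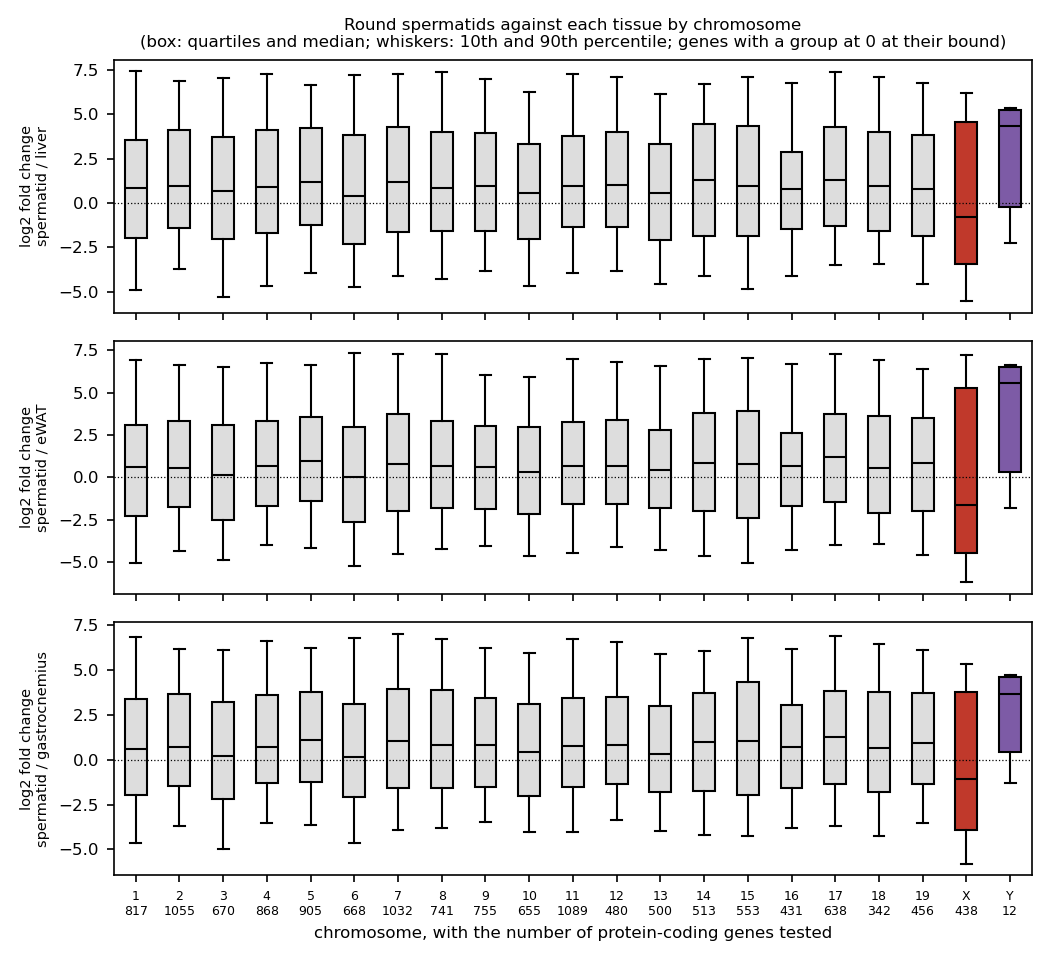
Log2 fold change of round spermatids over each somatic tissue (y axes) for protein-coding genes by chromosome (x axis, with the number of genes), genes with a group at 0 at their bound; boxes give quartiles and median, whiskers the 10th and 90th percentiles. The median of the X (red) is -0.80, -1.61 and -1.08, below that of every autosome (grey) in each panel; the Y (purple) has 12 genes.

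Of 12 protein-coding Y-linked genes tested, 8 lay above all 18 (66.67%), against 40.38% of all protein-coding genes tested. With the floor 4 did (33.33%), near the 34.51% of all protein-coding genes tested. Zfy1, Zfy2, Sly and Gm20854 did not pass the floor. Zfy1 (5.318 to 7.177 CPM) and Zfy2 (8.638 to 11.59 CPM), zinc finger factors, and Uba1y (18.01 to 22.53 CPM), a ubiquitin-activating enzyme, had 0 counts in all 18, and Usp9y measured 16.09 to 20.94 CPM against at most 0.7078. Eif2s3y, a translation factor, was expressed in soma too, at 40.90 to 47.62 CPM in spermatids and 3.721 to 31.38 in soma. Sly, Gm20736 and Gm20854 were at 3.923 to 11.97 CPM, with 0 counts in all 18; Sly belongs to a multicopy family, so its count is uncertain. Ddx3y and Kdm5d lay below all 18: Ddx3y, an RNA helicase, measured 2.439 to 4.027 CPM in spermatids and 40.40 to 194.4 in soma. Of their X-linked relatives, Ddx3x measured 5.994 to 9.278 CPM in spermatids and 80.60 to 235.5 in soma, and Zfx, Kdm6a and Uba1 also lay below all 18. Uba1 was still 111.0 to 127.9 CPM in spermatids, above Uba1y. The Y-linked genes and their relatives were chosen after results were seen.

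The part of other testis cells in the results was not tested. Meiotic prophase genes were high: 15 of 19 lay above all 18 and the list summed to 1866 to 2004 CPM, led by Stag3 (476.0 to 541.1 CPM), Smc1b (293.5 to 312.4) and Syce1 (244.3 to 301.4), of the meiotic cohesin and synaptonemal complex. Dmc1, Spata22 and Ccnb1ip1 were below the filter, and Meiob fell by 0.81 ± 0.24 (SE) relative to liver (edgeR adjusted p = 0.003314). Spermatogonial genes summed to 62.86 to 87.35 CPM (3 of 14 above all 18), with Id4 at 10.83 to 13.12, Uchl1 at 8.307 to 12.33, Kit at 8.999 to 14.80 and Nanos2 at 0.1389 to 0.4407. Sertoli cell genes summed to 171.0 to 225.1 CPM (3 of 12 above), of which the junction gene Tjp1 made up 121.4 to 125.1 and Clu 27.10 to 66.79, while the factor Sox9 was at 1.518 to 2.534 and the receptor Fshr at 0.06943 to 0.2489. Leydig cell genes summed to 36.82 to 44.22 CPM (0 of 9 above), with Insl3 at 2.633 to 5.934, the steroid-making Cyp17a1 and Star at 3.344 to 5.415 and 5.144 to 5.935, and Fdx1, common to steroid-making and other cells, at 19.56 to 21.60. Peritubular and vessel genes summed to 9.237 to 12.33 CPM (0 of 7 above), with Acta2 at 1.379 to 2.292 and Pecam1 at 0.4285 to 0.9127. Macrophage genes summed to 15.30 to 24.06 CPM (0 of 8), with C1qa at 0.7882 to 2.083 and C1qb at 2.997 to 5.103. Erythroid genes summed to 1.944 to 2.987 CPM (0 of 5), with Hbb-bs at 0.1736 to 0.4813 and Hba-a2 at 0.1254 at most. Genes below the filter could not count as above all 18. Only 16 meiotic, 8 spermatogonial, 9 Sertoli and 3 Leydig cell genes were tested. With no filter 18, 7, 6 and 4 genes of these lists lay above, and with the floor on soma 14, 0, 1 and 0. None of the peritubular and vessel, macrophage or erythroid genes did so either way. Of all genes tested 44.2% lay above all 18, and 33.7% with the floor.

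Somatic genes absent from spermatids were those with at least 10 CPM in all 6 libraries of a tissue and at most 3 counts in each spermatid library. Of 7456 genes that passed the somatic criterion 254 were absent (3.41%), 209 of them protein-coding. Liver gave 169 of 5156 (3.28%), eWAT 64 of 5495 (1.16%) and gastrocnemius 66 of 4637 (1.42%), and 14 were at 10 CPM or more in all 18 somatic libraries. The absent genes took 15.603% to 20.254% of liver counts, 3.661% to 9.393% of eWAT counts and 5.934% to 9.39% of gastrocnemius counts. In a spermatid library they took 147 to 197 counts in all. Gm42418, described next, is one of the absent genes and makes up part of these somatic shares. On the X, 13 of 218 were absent.

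Gm42418, a lincRNA model at chr17:39846958-39848788, led the absent genes in each tissue. It had 0 counts in all 6 spermatid libraries and 43340, 56060 and 123100 CPM (lowest, median and highest) in liver, 22360 to 57140 in gastrocnemius and 1733 to 32890 in eWAT. Its neighbour on the same strand, Gm26917 at chr17:39843013-39846341, had the opposite pattern, with 10160, 12260 and 15250 CPM in spermatids and at most 445.9 in soma. Both differ between the total and poly(A) chemistries as they do between the tissues, which cannot be told apart.

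In liver the other leading absent genes were secreted or metabolic products of hepatocytes. Alb, albumin, had 0 or 1 count in each spermatid library and 25030, 40380 and 46620 CPM in liver. Ahsg, fetuin-A, had 14010 to 23950 CPM in liver, Cyp4a10, a fatty acid hydroxylase, 9598 to 26850 and Ttr, the carrier of thyroxine, 11340 to 18670, each with 3 counts or fewer in every spermatid library. Of 25 hepatocyte genes, 25 were lower than in liver by edgeR's test, against 33.7% of all genes tested, and 8 were absent. The list summed to 5.433 to 6.627 CPM in spermatids against 107400 to 137200 in liver. In eWAT, Car3, a carbonic anhydrase, measured 6434 to 15840 CPM, Cfd, adipsin, 9830 to 19110, Hbb-bt, a globin of red cells, 305.6 to 1360 and Ccl6, a chemokine of myeloid cells, 284.2 to 662.5. Of the exact 50-base words of Hbb-bt, 58.26% are shared with another gene. In gastrocnemius, the fast-fibre troponins Tnnt3 (12170 to 25930 CPM), Tnnc2 (10490 to 24780) and Tnni2 (7182 to 13160) had at most 2 counts in each spermatid library.

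**Figure D5:**
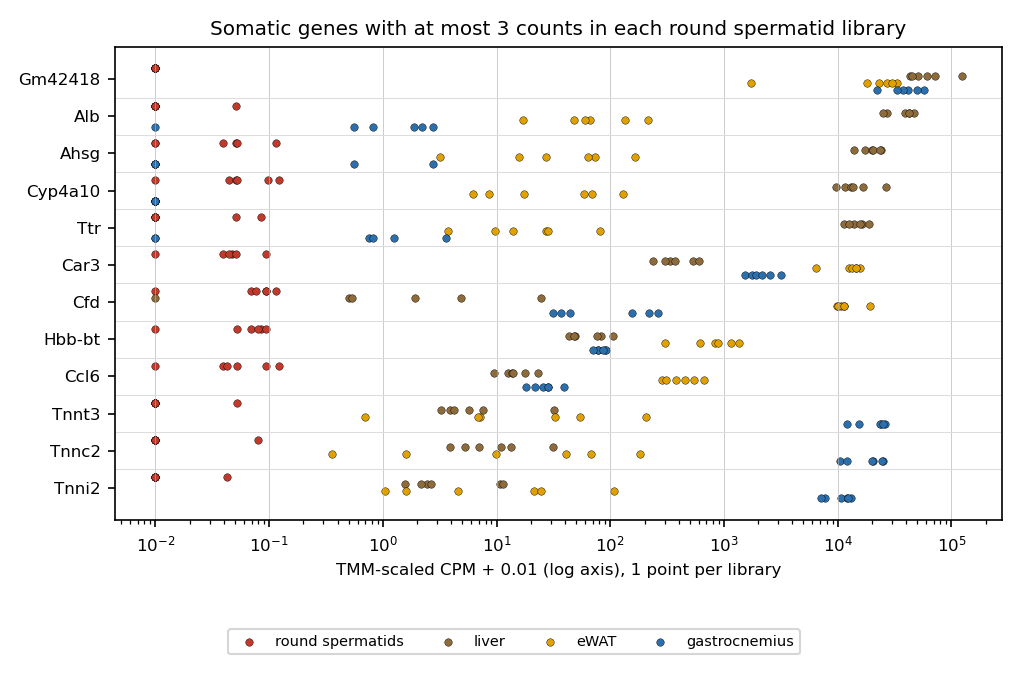
Levels of the leading absent genes (y axis) in 24 libraries, as TMM-scaled CPM + 0.01 on a log x axis, coloured by tissue. The spermatid points (red) lie at 0.1111 CPM or less for these 12 genes, and Gm42418 lies at 0 in all 6 spermatid libraries.

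Some genes named for a somatic tissue were well expressed in spermatids. Of 16 adipocyte genes, 16 were lower than in eWAT, against 37.1% of all genes tested, and 3 were absent. The list still summed to 489.1 to 590.3 CPM in spermatids, against 30950 to 60600 in eWAT. Most of that sum was the lipases Lipe (223.0, 247.6 and 277.1 CPM) and Pnpla2 (245.3, 271.8 and 309.5 CPM), which release fatty acids from stored fat. Lipe rose by 3.22 ± 0.31 (SE) over liver (edgeR adjusted p = 2.1e-10) and fell by 1.75 ± 0.27 relative to eWAT, while Fabp4, the fatty acid binding protein of adipocytes, measured 1.286 to 1.867 CPM and fell by 12.46 ± 0.52. Of 21 muscle fibre genes 20 were tested and 5 were absent. The 20 were lower than in gastrocnemius, against 32.5% of all genes tested. The list's 394.6 to 473.0 CPM in spermatids were mostly Ttn, titin, at 322.4 to 407.7 CPM, but at 8.355 TPM, since Ttn is very long. Scaled by length its change over liver turned from 4.03 to -1.19. Eno3, muscle enolase, measured 30.62 to 37.94 CPM in spermatids and rose by 3.05 ± 0.43 (SE) over liver, and Myh4, a fast myosin, was at 0.05876 to 0.2508 CPM.

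Genes that the 3 somatic tissues share were mostly low. Of 17 collagen and basement membrane genes none lay above all 18, where 44.2% of all genes tested did so. Below all 18 lay 8, against 15.3%, and 17 were lower than in eWAT, against 37.1%. The list summed to 92.23 to 108.5 CPM, with Sparc at 10.22 to 20.58, Dcn at 2.143 to 4.131 and Fn1 at 11.87 to 18.60 CPM. Of 15 genes of MHC class I and the interferon response 12 were tested. All 12 were lower than in liver and in eWAT, against 33.7% and 37.1% of all genes tested. Lower in all 3 contrasts were 9, against 23.1%. B2m, the light chain of MHC class I, measured 2.703, 3.551 and 3.692 CPM in spermatids and 277.2 to 5983 in soma, and fell by 10.60 ± 0.23 (SE) relative to liver (edgeR adjusted p = 2.12e-22). It lay below the morula too (16.40 to 21.02 CPM). H2-K1 was at 15.77 to 19.16 CPM and Ifi27 at 2.592 to 3.734.

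Of 12 genes of insulin signalling and glucose uptake, 7 were lower in all 3 contrasts, against 23.1% of all genes tested, and 1 lay above all 18. That 1 was Slc2a3, the glucose transporter GLUT3 known from neurons and sperm, at 902.6, 1095 and 1171 CPM in spermatids and at most 14.03 in soma, a rise of 11.44 ± 0.34, 7.16 ± 0.24 and 6.58 ± 0.25 (SE; edgeR adjusted p = 2.208e-20 over liver). The insulin-regulated transporter Slc2a4 measured 1.079 to 1.645 CPM in spermatids and 302.6 to 414.3 in gastrocnemius, and Slc2a2, the liver transporter, 4.846 to 6.923 against 294.3 to 356.8 in liver. Irs2 lay below all 18, at 7.607 to 8.051 CPM. Of 13 clock genes, 8 were lower in all 3 contrasts, with Tef at 26.63 to 30.69, Clock at 23.73 to 28.57 and Nr1d2 at 6.229 to 9.529 CPM below all 18. The repressors Per1 (116.0 to 145.4 CPM, 53.44 at highest in soma), Per2 (median 14.01) and Cry1 (31.54 to 38.90) lay above all 18, and Per1 rose by 3.23 ± 0.21 (SE) over liver (edgeR adjusted p = 8.556e-14). The time of day of collection was not given in the sources used here.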

How the data were processed

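Gene counts deposited by the authors were used as they stood; the authors used BBDuk for trimming, STAR for alignment (build GRCm38) and featureCounts for counting, and versions and strand setting are not given in the sources used here. Their length column (another deposited value, merged exon bases) gave TPM. Tables were joined by gene identifier; 51633 of 51746 genes had a symbol. Genes passing filterByExpr (minimum count 10) were scaled by TMM and tested in 1 fit over 24 libraries of 4 tissues with edgeR 4.0.16 (quasi-likelihood, two-sided, R 4.3.3), at 0.05 after Benjamini-Hochberg adjustment. The fit was tested on simulated data in which few genes changed, unlike the present data, so the scaling used here was not tested by it. Morula libraries were fitted with the spermatids separately. DESeq2 1.42.0, limma 3.58.1 and other scalings and filters were alternatives. Replicates were separate mice by the study's methods. Libraries are numbered by depth within a tissue; none were duplicates. The cauda sperm table was not used here, and 1 gene pair is not reported here. Members, lists and named genes were chosen with earlier results of these data known. Genes were named by rule: the 10 highest per length above all 18, the 5 highest absent genes of each tissue, the 3 highest of each of 19 lists, every pair and the genes at the threshold; all other genes were chosen after their values were seen.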

Additional observations from a re-analysis of the deposited data

Results flagged for a closer look

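In 12 of 84 groups of 6 libraries, the highest or lowest library stood further from the rest than Dixon's 95% limit for its gap over the range, where chance gives about 4.2. The eWAT library 3 gave 5 of these: it was highest for spermatid chromatin genes (41.77 CPM, next 6.529), sperm tail genes (227.1 CPM, next 62.22) and genes of haploid control (57.55 CPM, next 33.62), and lowest for adipocyte genes (30947 CPM, next 53994) and collagens (10042 CPM, next 11220). In eWAT, another library was highest for spermatogonial genes (228 CPM, next 125.1), another for hepatocyte genes (2576 CPM, next 1817) and another for muscle fibre genes (2011 CPM, next 560). The liver library 6 was highest for Sertoli cell genes (2495 CPM, next 2063), macrophage genes (244 CPM, next 149.4) and muscle fibre genes (263.1 CPM, next 89.20). A gastrocnemius library was highest for Leydig cell genes (112.3 CPM, next 52.44). No spermatid library stood apart in this way.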

How the results depend on the processing

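Of 185 alternative values of 13 results, all of them counts, 169 stayed within 1.5 times of the main count and 16 moved. With no filter on low counts, 15513 genes lay above all 18, 13479 were higher in all 3 contrasts, 16948, 18933 and 15499 were higher than liver, eWAT and gastrocnemius, 20119 were higher than morula and 8903 were lower than eWAT. At 4 times the highest somatic library, 4364 genes lay above all 18. With a change of at least 4-fold, 2017 genes were lower in all 3 contrasts, 3435 lower than liver, 3801 than eWAT and 3264 than gastrocnemius. With gastrocnemius fitted alone, 12887 genes were higher. Absent genes numbered 46 at 0 counts, 544 at 10 counts or fewer and 97 at 100 CPM or more. Leaving out each spermatid library gave 7129 to 7163 genes above all 18 and 258 to 285 absent genes. Of 351 values of named genes 338 were called, and 324 kept direction and call when spermatid counts were scaled by exon length, where 13 turned: C1qb (0.10) and Cox8a (0.83) over gastrocnemius, Cstf2 over eWAT (-1.34) and liver (-0.47), Kit over eWAT (-0.13), Papola over eWAT (-0.001) and liver (-0.56), Tmcc1 over eWAT (-0.89), gastrocnemius (-2.27) and liver (-1.01), Tspan5 over eWAT (-0.77) and Ttn over eWAT (-3.48) and liver (-1.19). The cause was not tested. The fitted median of all genes over liver, eWAT and gastrocnemius was 1.26, 0.90 and 1.18, and moved to 1.53, 1.23 and 1.60 with DESeq2 size factors, to 1.74, 0.52 and 1.82 with library totals and to 0.72, 0.49 and 0.66 with exon-length scaling. The floor of 3 counts and the fits without eWAT library 3 or the shallowest gastrocnemius library were chosen after seeing the data. No paired analysis was possible because the count columns carry no replicate numbers. Depth limits low somatic levels, in the shallow gastrocnemius libraries among others.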
